A study of Mus musculus with 4 samples.

Results

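Spots dominated by RNA of the fast myosin heavy chain Myh4 were described in a section of uninjured tibial muscle, measured by spatial RNA sequencing on a slide whose capture spots each read the RNA of a small patch of tissue. For each of the 2090 spots with 2000 or more UMIs (unique molecular identifiers, counts of single captured RNA molecules), of 2107 spots on the section, the Myh4 share was the number of Myh4 UMIs over the summed UMIs of Myh1, Myh2, Myh4 and Myh7. The members were chosen by this measured share, and the 209 spots at or above its 90th percentile are called Myh4-dominant spots. They were set beside the 209 spots at or below the 10th percentile, called Myh4-poor spots. The whole series held 10835 spots in 4 sections, 1 for each of 4 days, of which day 0 was uninjured and days 1, 3 and 7 followed an injury with cardiotoxin, a snake toxin that destroys fibres. All mice were Nse-Bmp4 transgenics on a C57BL/6 background aged 6 to 8 weeks, in which Bmp4 is driven by the promoter of neuron-specific enolase and bone forms in injured muscle. No section from mice without the transgene was part of these 4, and the labels state that 3 tibial muscles were mixed for each group. With 1 section a day there was no replicate, so nothing was tested, and every interval given is a 95% interval for counting error only.

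Muscle fibres differ in which myosin heavy chain they make, and this isoform sets much of their speed of contraction. Type IIB fibres make the Myh4 protein, contract fastest, draw mainly on glycogen and phosphocreatine and hold few mitochondria. Type IIX fibres make Myh1, type IIA fibres Myh2 and slow type I fibres Myh7, and the last of these kinds rely most on oxidative metabolism, myoglobin and a dense capillary bed. The front of the mouse lower leg is known as a muscle group rich in type IIB fibres.

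The fast isoforms come from neighbouring genes on mouse chromosome 11. In the RefSeq annotation of GRCm38.p6 (mm10), Myh2 lay at 67171027 to 67197517, Myh1 at 67200102 to 67224577 and Myh4 at 67237812 to 67260447, while Myh7 lay on chromosome 14. The transcripts of these genes are close to each other in sequence, so reads of one can be assigned to another, and how the counting treated such reads is not given in the sources used here. Promoter windows of 300 bases are shown for the 3 fast myosins, because their ratio defined the spots. Windows are also shown for Actc1, Mybph and Myl3, which had among the largest ratios to either side. They ran from 250 bases before to 50 bases after the start of the gene, except for Mybph. Its annotated start was 134193418, inside a window from 134193198 to 134193497. Capitals mark matches on either strand to the MEF2 motif, to the CArG box (the site of serum response factor) and to TGCTGA, the core of the site bound by Maf factors.
Myh4, chr11:67237562-67237861, + strand: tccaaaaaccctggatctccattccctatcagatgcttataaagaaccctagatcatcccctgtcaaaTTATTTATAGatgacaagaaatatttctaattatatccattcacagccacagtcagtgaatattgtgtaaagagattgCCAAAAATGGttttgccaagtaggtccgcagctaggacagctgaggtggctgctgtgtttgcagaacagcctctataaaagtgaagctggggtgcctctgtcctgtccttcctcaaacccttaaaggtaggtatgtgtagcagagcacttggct
Myh1, chr11:67199852-67200151, + strand: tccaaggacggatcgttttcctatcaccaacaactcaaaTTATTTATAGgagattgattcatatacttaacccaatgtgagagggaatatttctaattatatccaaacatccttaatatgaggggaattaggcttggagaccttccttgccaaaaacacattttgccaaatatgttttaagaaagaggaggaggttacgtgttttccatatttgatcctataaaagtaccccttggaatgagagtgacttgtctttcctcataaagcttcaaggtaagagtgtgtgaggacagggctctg
Myh2, chr11:67170777-67171076, + strand: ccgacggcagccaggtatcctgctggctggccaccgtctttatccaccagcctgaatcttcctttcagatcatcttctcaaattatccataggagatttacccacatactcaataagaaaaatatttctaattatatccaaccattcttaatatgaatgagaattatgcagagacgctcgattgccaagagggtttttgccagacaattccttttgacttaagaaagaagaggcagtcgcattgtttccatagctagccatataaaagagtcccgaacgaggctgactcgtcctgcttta
Actc1, chr2:114052826-114053125, - strand: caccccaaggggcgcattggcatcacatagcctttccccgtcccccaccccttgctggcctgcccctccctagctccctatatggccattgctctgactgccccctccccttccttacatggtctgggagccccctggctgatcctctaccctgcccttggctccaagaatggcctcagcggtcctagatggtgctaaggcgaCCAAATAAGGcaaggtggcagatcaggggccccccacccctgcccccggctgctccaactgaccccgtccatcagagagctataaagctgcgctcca
Mybph, chr1:134193198-134193497, + strand: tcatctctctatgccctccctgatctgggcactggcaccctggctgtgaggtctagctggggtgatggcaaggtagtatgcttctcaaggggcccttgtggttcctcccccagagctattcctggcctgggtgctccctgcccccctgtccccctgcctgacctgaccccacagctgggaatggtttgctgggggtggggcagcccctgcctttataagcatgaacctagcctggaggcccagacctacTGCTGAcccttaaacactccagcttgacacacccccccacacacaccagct
Myl3, chr9:110763428-110763727, + strand: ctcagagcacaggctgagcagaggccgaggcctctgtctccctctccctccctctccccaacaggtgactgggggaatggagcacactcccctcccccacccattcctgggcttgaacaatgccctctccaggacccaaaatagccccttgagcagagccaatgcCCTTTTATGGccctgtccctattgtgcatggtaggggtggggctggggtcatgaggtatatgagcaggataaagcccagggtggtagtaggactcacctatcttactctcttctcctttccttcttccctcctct

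The Myh4 window held 1 MEF2 match and 1 CArG match, the Myh1 window 1 MEF2 match, and the Myh2 window none of the 3 motifs. Actc1 and Myl3 each held 1 CArG match, and Mybph 1 Maf core. Over the windows of 27025 genes, 3.70% held a MEF2 match, 1.81% a CArG match and 21.7% a Maf core. The E-box, CANNTG, was found in 75.0% of the windows, 3 times in that of Myh4 and in neither that of Myh1 nor that of Myh2. These are letter matches in a fixed window and not measured sites.

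The rule used the 4 myosins, so their levels are a description of how the spots were chosen. Levels are given as CPM, the UMIs of a gene per 1000000 UMIs of a spot or, for a group, of the UMIs summed over its spots. In the Myh4-dominant spots, Myh4 made up 99.0% of the UMIs of the 4 myosins, Myh1 0.847%, Myh2 0.124% and Myh7 0.0121%. In the Myh4-poor spots Myh4 was still the main isoform, with 63.8%, beside 26.9% for Myh1, 7.89% for Myh2 and 1.44% for Myh7. The comparison is therefore one of nearly pure Myh4 with a mixture in which Myh1 took most of the rest.

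Myh4 itself stood between 28011 and 57452 CPM in single Myh4-dominant spots, with a median of 42994 CPM, against 8712 to 35495 CPM and a median of 19270 CPM in the Myh4-poor spots. Myh1 reached at most 662 CPM in a Myh4-dominant spot and was at least 984 CPM in every Myh4-poor spot. Myh7 was at 0 in 186 of the 209 Myh4-dominant spots and in 57 of the 209 Myh4-poor spots, so slow fibre RNA was itself unevenly spread over the Myh4-poor spots. The threshold cut through a continuous distribution. The lowest share among the members was 0.985761 and the highest outside it 0.985751, while the highest share among the Myh4-poor spots was 0.741652 and the next above it 0.742574. Over all 2090 spots the median share was 94.6%, and 4 spots reached a share of 1.

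**Figure D1:**
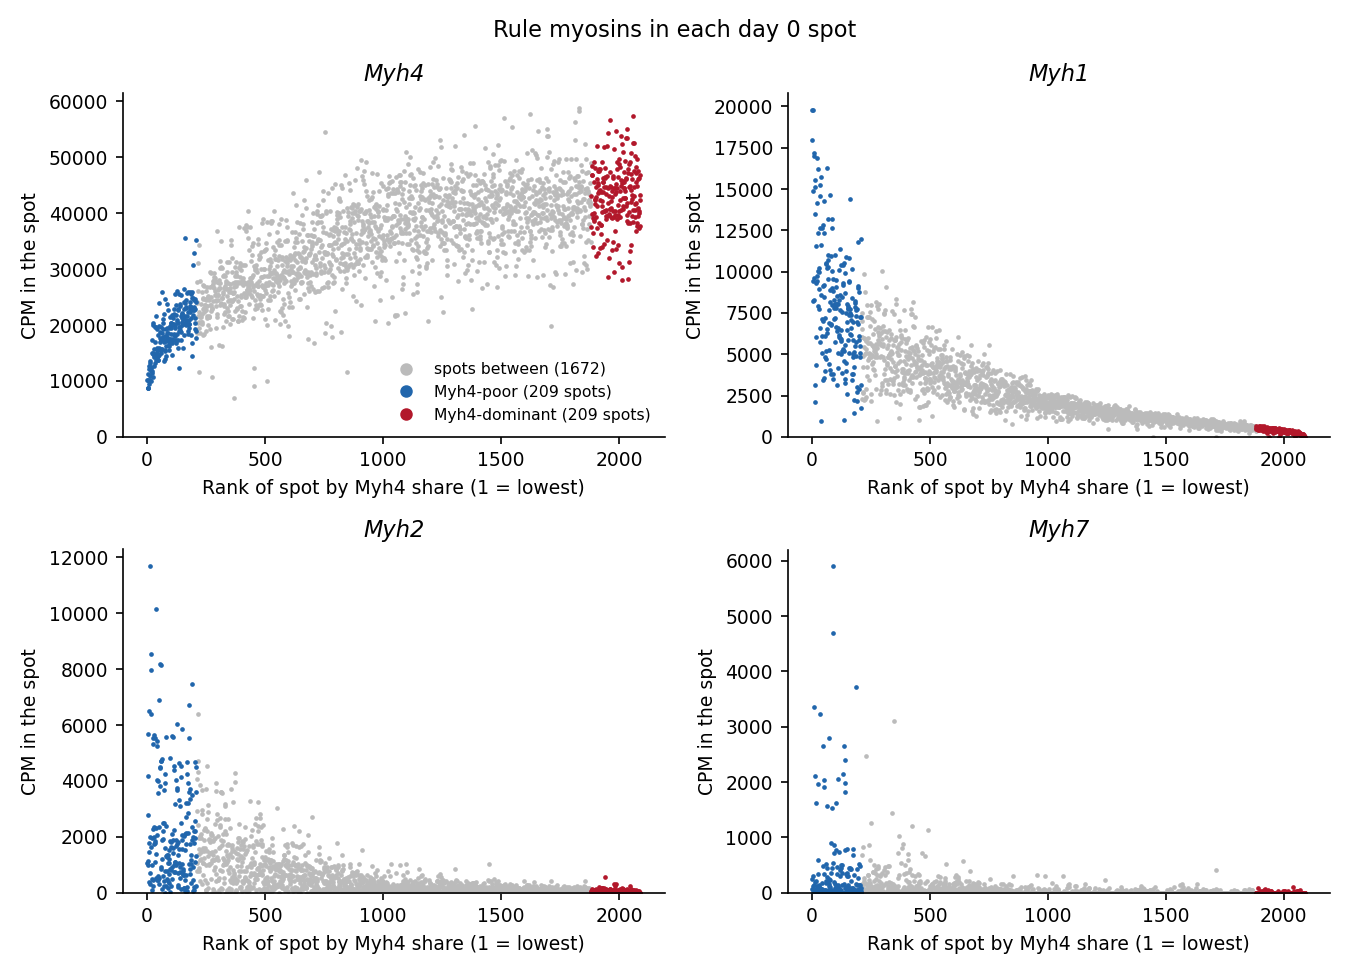
CPM of the 4 myosins that define the score, in each of the 2090 day 0 spots, ordered along the x axis by the Myh4 share. The 209 Myh4-dominant spots (red) hold 28011 to 57452 CPM of Myh4 and at most 662 CPM of Myh1, the 209 Myh4-poor spots (blue) hold 8712 to 35495 CPM of Myh4, and the 1672 spots between (grey) join the groups without a gap.

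The groups had similar but not equal depth. Myh4-dominant spots had 2077 to 52106 UMIs, with a median of 22098, and Myh4-poor spots 4319 to 57274, with a median of 25965. The score of a member rested on at least 85 UMIs of the 4 myosins and that of a Myh4-poor spot on at least 139. The 6 pan-muscle genes, made by all striated muscle fibres (Acta1, Des, Ldb3, Neb, Tcap and Ttn), took 7.66% of the UMIs of the Myh4-dominant spots and 6.07% of those of the Myh4-poor spots, and the mitochondrial genome took 10.5% and 16.9%. The part of these gaps in the values below was not tested beyond the settings named with them, and in a spot fewer cells of a kind and less RNA per cell cannot be told apart.

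Of 6793 genes with at least 10 CPM over the section, other than the 4 myosins, 186 (2.74%) were at least 1.5-fold higher in the Myh4-dominant spots and 1018 (15.0%) at least 1.5-fold lower. The median log2 ratio of all 6793 was -0.18. With TMM factors, a scaling that centres most genes near 0, this median was 0.03. On that scale 438 genes (6.45%) were higher and 511 (7.52%) lower. The higher genes were then 46.2% of those past the fold in place of 15.4%. All ratios below are on the scale of total UMIs unless another is named. Distances of a list from the median of all genes do not depend on that choice.

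**Figure D2:**
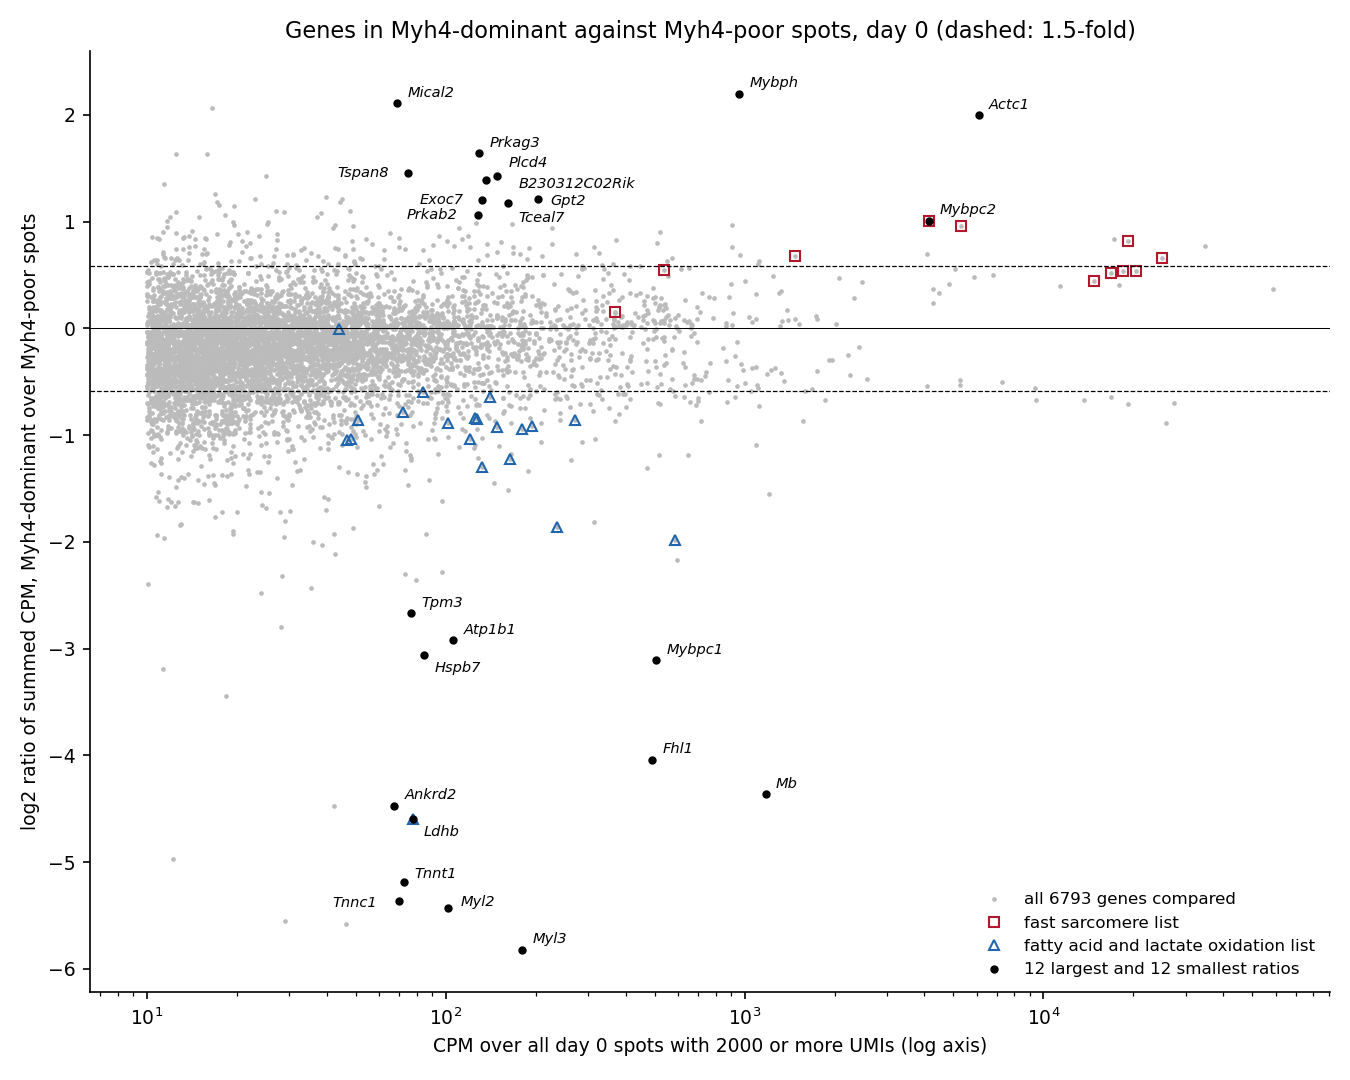
Each gene compared at day 0, with its level over the section on the x axis (CPM, log scale) and the log2 ratio of summed CPM in Myh4-dominant over Myh4-poor spots on the y axis. Fast sarcomere genes (squares) lie between 0.15 and 1.01, the fatty acid and lactate oxidation genes (triangles) between -4.60 and -0.01, and the genes with the smallest ratios reach -5.82.

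RNA of the contractile proteins of fast fibres was higher in the Myh4-dominant spots. The list of fast sarcomere isoforms had 11 genes, all of them compared. Of these, 5 were past 1.5-fold higher and none lower, beside 2.74% and 15.0% of all genes. Their median log2 ratio was 0.55, which is 0.73 above that of all genes. The largest among them was Mybpc2, the fast isoform of myosin binding protein C. It stood between 2148 and 8115 CPM in the Myh4-dominant spots with a median of 5169 CPM, and between 1274 and 5847 CPM with a median of 2468 CPM in the Myh4-poor spots. The groups overlapped, and 208 of the 209 Myh4-dominant spots lay above the median of the others. On summed UMIs Mybpc2 was 2.02-fold higher.

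Actn3, the alpha-actinin of the fast Z disc, was next in this list at 6647 CPM against 3425 CPM, a log2 ratio of 0.96 (0.93 to 0.98). Tpm1 (fast alpha tropomyosin) had 0.82, Myoz1 (a calcineurin-binding Z disc protein) 0.68 and Mylpf (the fast regulatory light chain) 0.66. The fast troponins differed less, with 0.54 for Tnnt3, 0.52 for Tnnc2 and 0.44 for Tnni2. Mylk2, the kinase that phosphorylates the regulatory light chain, had the smallest ratio of the list, 0.15 (0.06 to 0.25). All 11 ratios were also above 1 with TMM factors, where 10 passed 1.5-fold, and with a total that left out mitochondrial, haemoglobin and rule myosin genes, where 4 passed. Of all genes, 6.45% passed higher with TMM factors and 2.05% with that total.

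Among the 12 genes with the largest ratios of those with at least 50 CPM over the section, Mybph and Actc1 belong to the contractile apparatus, as does Mybpc2. Mybph, myosin binding protein H, lay between 347 and 3791 CPM with a median of 1473 CPM in the Myh4-dominant spots, and between 0 and 1154 CPM with a median of 284 CPM in the Myh4-poor spots. Of the Myh4-dominant spots, 173 lay above the highest Myh4-poor spot. The summed level was 4.59-fold higher (4.36 to 4.84), the largest ratio of all 6793 genes.

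Actc1 encodes the cardiac alpha actin, an isoform made in the heart and in developing skeletal muscle. It lay between 2034 and 14329 CPM with a median of 8298 CPM in the Myh4-dominant spots, and between 419 and 7611 CPM with a median of 1851 CPM in the Myh4-poor spots. Here 142 Myh4-dominant spots lay above every Myh4-poor spot, and 113 Myh4-poor spots lay below every Myh4-dominant spot. On summed UMIs it was at 8611 CPM against 2150 CPM, a log2 ratio between 1.97 and 2.03. Actc1 was on the list of regenerating muscle genes, and no other member of that list was past the fold higher. Mymk, the fusion protein myomaker, was at 8.77 CPM in the Myh4-dominant spots and 9.72 CPM in the Myh4-poor spots, Myl4 (an embryonic light chain) was at 9.43 against 21.5 CPM, and Mymx and Tnnt2 were below the 10 CPM needed for comparison.

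The other genes of these 12 included enzymes and signalling proteins. Mical2, which oxidises actin, was at 107 CPM against 24.9 CPM, a 4.32-fold difference (log2 interval 1.83 to 2.40), and was at 0 in 119 Myh4-poor spots and 37 Myh4-dominant spots. Prkag3 and Prkab2, regulatory subunits of the AMP-activated kinase, were 3.12-fold and 2.09-fold higher. Gpt2, a mitochondrial alanine aminotransferase, was 2.32-fold higher, and Plcd4, a phospholipase C, 2.70-fold. Tspan8 (a tetraspanin), Exoc7 (an exocyst subunit) and Tceal7 had ratios of 2.75, 2.30 and 2.26. The last of the 12 was B230312C02Rik, with 2.62.

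Slow and cardiac-type sarcomere genes were far lower in the Myh4-dominant spots, at 516 CPM in sum against 4787 CPM. Of 11 genes on the list of slow sarcomere isoforms, 9 reached 10 CPM over the section. All 9 were past 1.5-fold lower, beside 15.0% of all genes, with a median log2 ratio of -5.19. Myl3, the slow essential light chain, was at 0 in 161 Myh4-dominant spots and reached 316 CPM in the highest, while in the Myh4-poor spots it ranged from 0 to 4239 CPM with a median of 451 CPM. None of the Myh4-dominant spots lay above that median, and 125 Myh4-poor spots lay above the highest Myh4-dominant spot. On summed UMIs Myl3 was 56.4-fold lower in the Myh4-dominant spots, at 12.3 CPM against 692 CPM, the smallest ratio of all 6793 genes.

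The partners of Myl3 in the slow filament had like ratios. Myl2, the slow regulatory light chain, was 43.2-fold lower, Tnnc1, slow troponin C, 41.0-fold, and Tnnt1, slow troponin T, 36.4-fold. Tnni1, slow troponin I, was at 2.63 CPM against 123 CPM. Members of the list that fast fibres are also known to hold differed by less. These were Mybpc1, the slow isoform of myosin binding protein C, at 142 against 1225 CPM, Tpm3, slow tropomyosin, at 33.1 against 211 CPM, and Actn2, the alpha-actinin of all fibres, at 292 against 1313 CPM. The remaining sarcomeric myosin genes were too low to compare. Myh14, a non-muscle myosin kept in the same list, was at 11.6 against 15.5 CPM, a ratio whose log2 interval ran from -0.94 to 0.10.

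**Figure D3:**
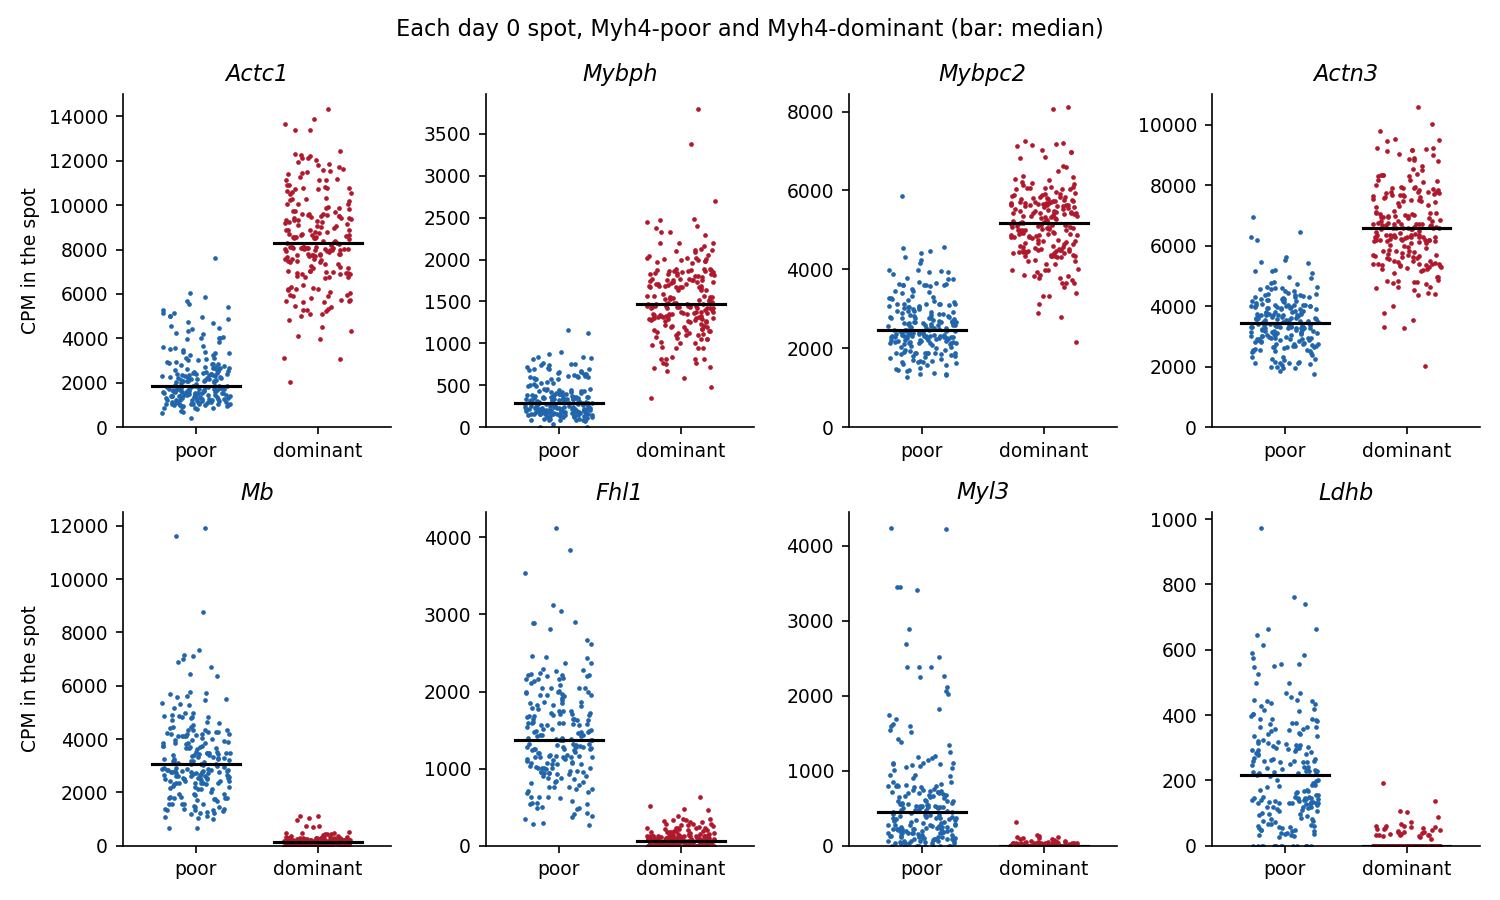
CPM in each Myh4-poor (blue) and Myh4-dominant (red) day 0 spot for 4 genes that were higher and 4 that were lower in the Myh4-dominant spots, with the median of each group as a bar. Median Actc1 is 8298 CPM against 1851 CPM and median Mybph 1473 CPM against 284 CPM, while median Mb is 130 CPM against 3056 CPM and median Ldhb 0 against 217 CPM.

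Calcium handling was tilted to the fast set. All 12 genes of the fast calcium list had ratios above 1 (median log2 0.52). Past 1.5-fold higher were 4, beside 2.74% of all genes, or 10 with TMM factors, beside 6.45%. Pvalb, parvalbumin, which buffers calcium in fast fibres and speeds their relaxation, lay between 7904 and 36022 CPM in the Myh4-dominant spots and between 4933 and 22227 CPM in the Myh4-poor spots, and was 1.79-fold higher on summed UMIs. Mrln, the micropeptide inhibitor of the calcium pump, had a log2 ratio of 0.87, Cacng1, a subunit of the voltage sensor, 0.83 and Jph1, which ties the tubule to the reticulum, 0.65. The fast calcium pump Atp2a1 (0.41), the release channel Ryr1 (0.44) and the voltage sensor Cacna1s (0.31) had smaller ratios.

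Of the slow calcium list, 5 of 7 genes were compared and 2 were past 1.5-fold lower, beside 15.0% of all genes. Atp2a2, the slow and cardiac calcium pump, was at 51.1 CPM against 195 CPM and Casq2, the cardiac calsequestrin, at 22.6 against 86.0 CPM, each 3.81-fold lower. The other 3 did not pass the fold, with log2 ratios of 0.52 for Calm3, 0.06 for Ppp3ca and -0.22 for Sln.

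The list of glycogen and glycolysis genes, which includes Fbp2 and Gys1, was moderately higher. Of 20 genes, 18 had ratios above 1, and the median log2 ratio was 0.41. Past 1.5-fold higher were 4, beside 2.74% of all genes, or 11 with TMM factors, beside 6.45%. Past 1.5-fold lower was 1, beside 15.0% of all genes. The 4 were Phkg1, the catalytic subunit of phosphorylase kinase (0.71), Pygm, muscle glycogen phosphorylase (0.70), Fbp2, muscle fructose bisphosphatase (0.68), and Pgm1, phosphoglucomutase (0.63), of which Phkg1, Pygm and Pgm1 act in the breakdown of glycogen. The later steps had smaller ratios, such as 0.50 for Eno3, 0.48 for Gapdh, 0.37 for Ldha and 0.12 for Pfkm. Hk2, the hexokinase that phosphorylates glucose after its uptake, was the gene past the fold in the other direction, at 78.5 CPM against 140 CPM (log2 ratio -0.84, -1.02 to -0.65). Gys1, glycogen synthase, was at -0.44.

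Ckm, the cytosolic creatine kinase that regenerates ATP from phosphocreatine, lay between 13279 and 78187 CPM in the Myh4-dominant spots with a median of 41622 CPM, and between 14216 and 46603 CPM with a median of 25474 CPM in the Myh4-poor spots. It was 1.70-fold higher on summed UMIs. Its mitochondrial counterpart Ckmt2 was lower, at 737 CPM against 2158 CPM.

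Fuels other than glucose showed the reverse. Of 20 genes of fatty acid and lactate oxidation, 19 were past 1.5-fold lower and none higher, against 15.0% of all genes compared, with a median log2 ratio of -0.92. Ldhb, the heart-type subunit of lactate dehydrogenase, which favours lactate use, was at 0 in 174 Myh4-dominant spots and 17 Myh4-poor spots and 24.2-fold lower on summed UMIs. Fabp3, the fatty acid binding protein of muscle and heart, was at 316 CPM against 1244 CPM, with a median of 293 CPM and 1157 CPM in single spots. Lpl, lipoprotein lipase, was 3.64-fold lower, Acadl 2.46-fold, Acadvl 2.33-fold and the fatty acid transporter Cd36 1.88-fold. Cpt1b, which admits fatty acids to the mitochondrion, was 1.56-fold lower. The exception was Ucp3, a mitochondrial uncoupling protein, at 46.5 CPM against 46.9 CPM. With TMM factors 16 of the 20 were past the fold, and Ucp3 was above 1.

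RNA of the mitochondrial core was lower by less. All 17 genes of the citric acid cycle list had ratios below 1 and 7 passed 1.5-fold, with a median log2 ratio of -0.53. Idh2 (-1.42) and Mdh1 (-1.31) were the lowest of the list. Mdh1, 1 of the 7, encodes the cytosolic malate dehydrogenase, which lies outside the mitochondrion. All 23 nuclear genes of the respiratory chain had log2 ratios between -0.87 and -0.30, with a median of -0.54, and 9 passed the fold. The lowest was Cox7a1, the heart and muscle isoform of a cytochrome oxidase subunit, at 555 CPM against 1016 CPM. The 13 genes encoded by the mitochondrial genome had log2 ratios from -0.89 (mt-Co1) to -0.13 (mt-Nd4l), and 7 passed. Of all genes, 15.0% passed lower. With TMM factors the number past the fold was 3 of 17, 1 of 23 and 2 of 13, beside 7.52% of all genes lower on that scale. The medians lay 0.35, 0.36 and 0.46 below that of all genes on either scale.

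Oxygen storage and the stress-responsive proteins of oxidative fibres included several of the 12 smallest ratios among genes with at least 50 CPM. Mb, myoglobin, which stores oxygen in the fibre, lay between 0 and 1129 CPM with a median of 130 CPM in the Myh4-dominant spots and between 664 and 11918 CPM with a median of 3056 CPM in the Myh4-poor spots. The groups overlapped between 664 and 1129 CPM, and 202 Myh4-dominant spots lay below every Myh4-poor spot. On summed UMIs Mb was 20.6-fold lower. Fhl1, a LIM protein of the sarcomere, had a median of 65.8 CPM against 1375 CPM and was 16.4-fold lower, with 194 Myh4-dominant spots below every Myh4-poor spot.

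Csrp3, the muscle LIM protein, was at 3.51 CPM against 168 CPM and was at 0 in 194 Myh4-dominant spots. Ankrd2, a stretch-responsive ankyrin repeat protein, was 22.2-fold lower, and Atp1b1, a subunit of the sodium pump, 7.57-fold. Of the small heat shock proteins, Hspb7 was 8.32-fold lower, Hspb6 2.28-fold and Cryab 2.27-fold, whereas Hspb1 was at 268 CPM against 269 CPM.

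Regulators of fibre type differed in both directions. Of 29 genes, 21 reached 10 CPM. Of these, 3 were past 1.5-fold higher and 5 lower, beside 2.74% and 15.0% of all genes compared. Their median log2 ratio was 0.03, and -0.06 with the total that left out mitochondrial, haemoglobin and rule myosin genes. The 3 were Mafa (213 against 108 CPM), Maf (193 against 114 CPM) and 2310065F04Rik (277 against 161 CPM). Mafa and Maf are large Maf transcription factors known to drive Myh4, and 2310065F04Rik is a noncoding RNA gene upstream of Myh2 on chromosome 11. Among genes at least 1.5-fold higher that have a promoter window here, 26.4% of 144 held the Maf core, 4.17% a CArG match, 2.78% a MEF2 match and 69.4% an E-box. Among all 5416 genes compared that have one, the shares were 17.3%, 1.96%, 2.55% and 66.2%. The differences between these shares were not tested, and the Myh4 window itself held no Maf core.

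The 5 lower regulators were Vgll2, a cofactor of TEAD factors (19.7 against 80.8 CPM, log2 ratio -2.03), Ppargc1a, the coactivator of mitochondrial biogenesis (5.70 against 22.2 CPM, -1.96), Tead1 (69.7 against 142 CPM, -1.03), Hdac5 (-0.71) and Esrra, an oestrogen-related receptor that drives oxidative genes (-0.70). Sox6, a repressor of slow genes, was just short of the fold at 0.58 (0.33 to 0.84). Eya1, which maintains the fast programme, was at 0.06 (-0.42 to 0.54).

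Of the genes of growth and atrophy, 3 of 11 compared were past the fold higher, beside 2.74% of all genes, and 2 were lower, a share near the 15.0% of all genes. Mstn, myostatin, the secreted brake on muscle growth, was at 50.4 CPM against 22.2 CPM, a log2 ratio of 1.18 (0.85 to 1.51). Smox and Amd1, enzymes of polyamine metabolism, had 0.84 and 0.88. Mstn and Amd1 were not highest in the Myh4-dominant spots when all spots were taken in 10 groups of equal size by Myh4 share. Mstn was at 54.7 CPM in the fifth group and 60.4 CPM in the eighth. Amd1 was at 23.7 CPM in the fifth group and 19.3 CPM in the Myh4-dominant spots, whereas Smox was highest in these, at 138 CPM. The 2 lower genes were Fbxo32, the ubiquitin ligase atrogin, at 17.8 CPM against 51.6 CPM, and the kinase gene Akt1, at 31.1 CPM against 50.1 CPM. Trim63, the other ubiquitin ligase of atrophy, was at 335 CPM against 239 CPM and did not pass the fold.

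Vessel markers were lower in the Myh4-dominant spots. All 8 endothelial genes were past 1.5-fold lower, beside 15.0% of all genes, with a median log2 ratio of -0.95 beside -0.18. Their summed level was 765 CPM against 1311 CPM, with 0 to 3143 CPM in single Myh4-dominant spots and 251 to 3840 CPM in Myh4-poor spots. Pecam1 and Cdh5, junction proteins of endothelium, were 1.93-fold and 1.94-fold lower and the VEGF receptor genes Flt1 and Kdr 2.55-fold and 2.31-fold. Of 7 smooth muscle and pericyte genes, 6 were past 1.5-fold lower. They included Rgs5 (284 against 518 CPM) and Myh11 (11.2 against 38.9 CPM). With TMM factors 6 of the 8 endothelial genes and 5 of the 7 smooth muscle genes were past the fold, beside 7.52% of all genes.

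None of the 8 fibroblast genes passed 1.5-fold in either direction, and their summed level was 7095 CPM against 8272 CPM. None of the 5 compared macrophage genes, the 3 compared Schwann cell genes, the 2 compared satellite cell genes and the 4 haemoglobin genes passed either. Of all genes, 2.74% passed higher and 15.0% lower, shares at which lists this short can hold none. The defining marker Pax7 of satellite cells was at 2.41 CPM against 2.80 CPM. Of the 7 compared neuromuscular junction genes, Dok7 and Etv5 were past 1.5-fold lower, beside 15.0% of all genes. The acetylcholine receptor subunit genes Chrna1 and Chrne had log2 ratios of 0.16 and -0.03. Of the adipocyte genes, 1 passed, Cfd, at 68.4 CPM against 41.7 CPM, and Adipoq was at 5.92 CPM against 5.05 CPM. Cfd was at 121 to 254 CPM across the spots between these ends of the Myh4 share, taken in 8 groups of equal size, and against all other spots the median log2 ratio of this list was -1.42 in place of 0.23. Both compared tendon genes, Fmod and Thbs4, were past 1.5-fold lower, beside 15.0% of all genes.

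Pan-muscle RNA differed in the same direction as Myh4, with Acta1, skeletal alpha actin, at a log2 ratio of 0.37, Neb (nebulin) at 0.47, Ttn (titin) at 0.42 and Des (desmin) at 0.02. Tcap, the titin cap protein, went the other way at 783 CPM against 1672 CPM. When only spots at or above the median pan-muscle share of the section were ranked, the groups held 105 spots each with pan-muscle shares of 7.85% and 7.43%, and the lower group reached up to a Myh4 share of 0.891. In that setting the median log2 ratio was 0.30 for fast sarcomere genes, -3.35 for slow sarcomere genes, 0.18 for glycolysis and -0.44 for fatty acid and lactate oxidation. Of the 6348 genes compared in that setting, 4.49% were past the fold higher and 8.57% lower. No fast sarcomere, glycolysis or nuclear respiratory chain gene was then past the fold in either direction, and 1 of 12 fast calcium genes was higher. All 8 slow sarcomere genes compared there were past the fold lower, as were 6 of 20 of fatty acid and lactate oxidation. So were 3 of 8 endothelial genes and 6 of 7 smooth muscle and pericyte genes. The log2 ratio was 1.23 for Mybph, 0.96 for Actc1, 0.44 for Mybpc2 and -3.65 for Mb. Of 20 fibre type regulators compared there, none was past the fold higher and 2 were lower, shares near those of all genes.

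The levels differed along the whole range of the Myh4 share. Spots were divided into 10 groups of 209 by their share, whose median ran from 0.665 to 0.990. Mb was at 3372 CPM in the lowest group, 773 CPM in the fifth and 164 CPM in the highest, and each group was below the one before it. Fhl1 followed with 1485, 272 and 90.3 CPM, and Myl3 with 692, 73.0 and 12.3 CPM.

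Several genes that were higher in the Myh4-dominant spots differed more over the lower groups than over the upper ones. Actc1 was at 2150 CPM in the lowest group, 6737 CPM in the fifth, 8349 CPM in the eighth and 8611 CPM in the highest. Mical2 was at 24.9, 76.3, 91.1 and 107 CPM in the same groups and Actn3 at 3425, 5595, 6050 and 6647 CPM. Mybph still differed between the last groups, with 1300 CPM in the eighth and 1542 CPM in the highest. Exoc7 was at 85.1 CPM in the lowest group, 126 CPM in the fifth and 196 CPM in the highest and Prkab2 at 83.6, 124 and 175 CPM, so they differed about as much over the upper groups. Set against all 1881 other spots in place of the Myh4-poor ones, only 9 genes were at least 1.5-fold higher in the Myh4-dominant spots and 360 at least 1.5-fold lower, with 0.79 for Mybph, 0.58 for Actc1 and -2.98 for Mb on the log2 scale. The summed endothelial markers were at 1311 CPM in the lowest group, 1069 CPM in the fifth and 765 CPM in the highest.

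**Figure D4:**
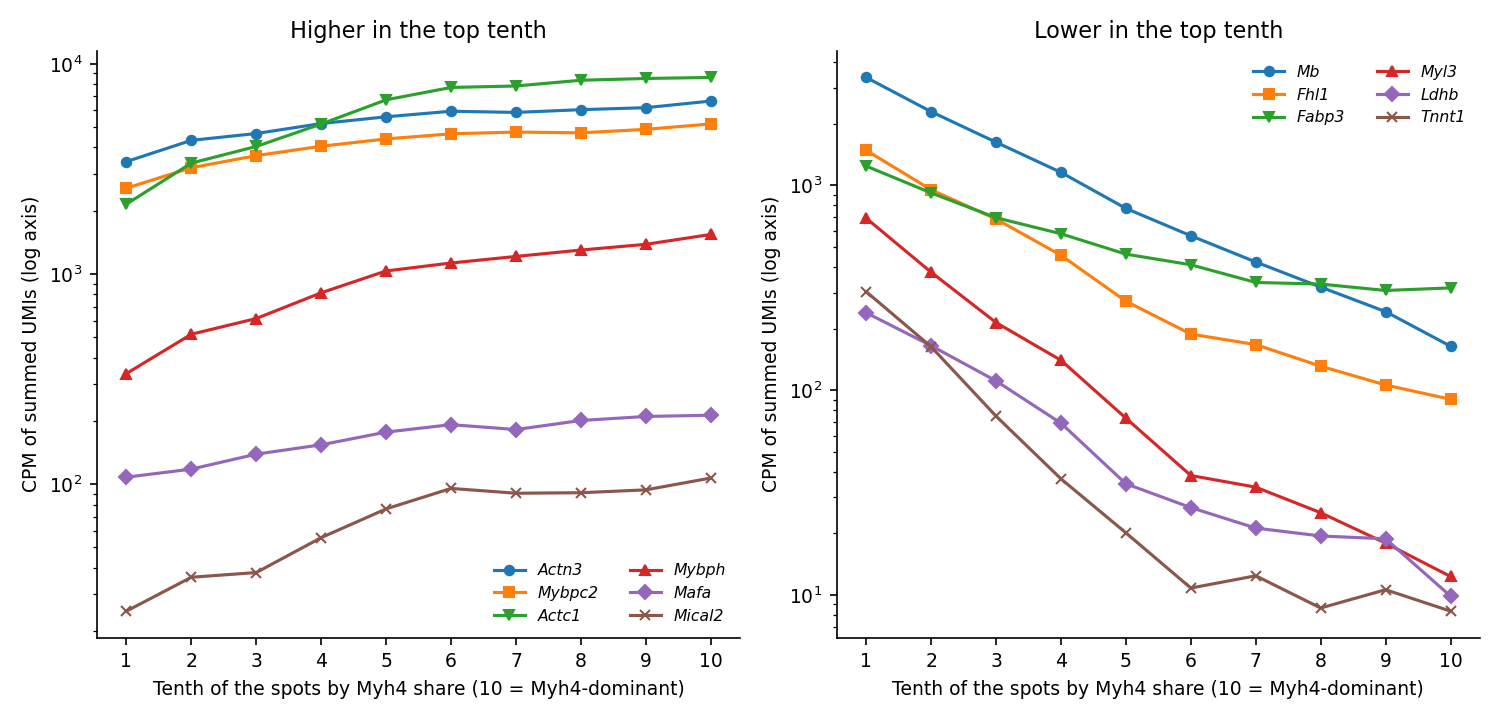
Summed CPM on a log axis in 10 groups of 209 day 0 spots ordered by the Myh4 share, for 6 genes higher (left) and 6 lower (right) in the top group. Actc1 goes from 2150 to 6737 CPM over the first 5 groups and to 8611 CPM over the rest, while Mb goes from 3372 to 773 CPM and on to 164 CPM.

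The Myh4-dominant spots were not uniform among themselves. The 90th percentile of the 209 spots was 1.99 times the 10th for Actc1 (5725 and 11411 CPM), 1.78 times for Ckm and 1.86 times for Pvalb, counting error included. For Myh4, which chose the spots, it was 1.36 times. Col1a1, a fibroblast collagen, ranged from 0 to 17554 CPM, and 1 member held 7490 CPM of Hba-a1, the red cell globin, against a median of 137 CPM.

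Pairs of genes were followed over these 209 spots by Spearman's rho, which describes 1 library in which all values of a spot share the same total. Ckm went with Actn3 (0.78) and Pvalb (0.77), and Myh4 went with Ckm (0.58). Actc1 did not follow Ckm (0.05) but went with Myl1, the fast essential light chain (0.47), and with Car3, carbonic anhydrase (0.50), and against Col1a1 (-0.43). Mybph went with Ckm (0.49) and less with Actc1 (0.30). UMIs per spot had a rho of 0.09 with Actc1, -0.01 with Ckm and 0.39 with Myl1. These pairs were chosen after their values were seen.

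The same rule was applied within each injured section, with percentiles of that section, so that no spots were shared with day 0. It gave 423 Myh4-dominant and 216 Myh4-poor spots at day 1, 302 of each at day 3 and 295 of each at day 7. The day 1 section was shallow, the 90th percentile was a share of 1.000, and all 423 spots at that share were members, some on as few as 3 myosin UMIs. The Myh4-poor spots of day 3 had a highest share of 0.382716, so the groups there differ more than at day 0, and the Myh4-dominant spots of day 3 held 5.33% pan-muscle UMIs against 2.60% in the others. Fibre types and fibre damage or renewal cannot be told apart in the shares of injured sections.

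Past 1.5-fold higher in the Myh4-dominant spots were 728 of 7231 genes at day 1 (10.1%), 696 of 8506 at day 3 (8.18%) and 279 of 8673 at day 7 (3.22%). Past 1.5-fold lower were 657 (9.09%), 3335 (39.2%) and 1442 (16.6%). The 12 genes with the smallest ratios at day 0 among those with at least 50 CPM were past 1.5-fold lower in all 3 sections, 12 of 12 each time. In the first of these sections Mb was at 129 CPM against 4337 CPM, in the next at 250 against 3817 CPM and in the last at 678 against 4799 CPM. Of the 12 with the largest ratios by the same limit, 10, 9 and 10 were past 1.5-fold higher in turn.

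The fast sarcomere list was past the fold higher for 10, 11 and 9 of its 11 genes on days 1, 3 and 7, and its summed level was 93232 against 38898 CPM, 97398 against 28465 CPM and 98524 against 58942 CPM. Of the 20 genes of fatty acid and lactate oxidation, 18 were past 1.5-fold lower on day 1 and 17 on day 7. On day 3 they were 6, with 1 higher, a smaller share than the 39.2% of all genes compared, and the list's median of -0.29 lay above the -0.43 of all genes. All 13 mitochondrially encoded genes had ratios below 1 on the uninjured section, though 2 were above 1 with TMM factors. On each of days 1 and 7, 10 of 13 had ratios below 1. On day 7 the list's median was -0.18, beside -0.21 for all genes. All 12 of these genes compared at day 3 had ratios above 1. Mafa and Maf were past 1.5-fold higher in each section, with 0.95, 2.42 and 0.70 for Mafa on the log2 scale and 1.04, 1.54 and 0.76 for Maf. So was 2310065F04Rik, with 1.51, 3.14 and 0.82, and Mstn, at 18.8 against 5.33 CPM, 82.4 against 2.58 CPM and 74.3 against 18.5 CPM.

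Actc1 and Mybph, 2 of the leading genes of the uninjured section, had ratios on both sides of 1 in the injured sections. On day 1 Actc1 was at 416 CPM in the Myh4-dominant spots against 45.3 CPM in the Myh4-poor spots (log2 interval 2.88 to 3.53). On day 3 it was at 85.2 against 254 CPM (-1.76 to -1.39), and on day 7 at 1059 against 879 CPM (0.20 to 0.33). Its level in the Myh4-dominant spots was below the 8611 CPM of day 0 in each injured section. The log2 ratio of Mybph in these sections was -0.11 (-0.26 to 0.03), then -0.78 (-0.95 to -0.60) and last 1.25 (1.16 to 1.36). The section, the mice and the day differ together here, so a difference between days cannot be told apart from one between sections.

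**Figure D5:**
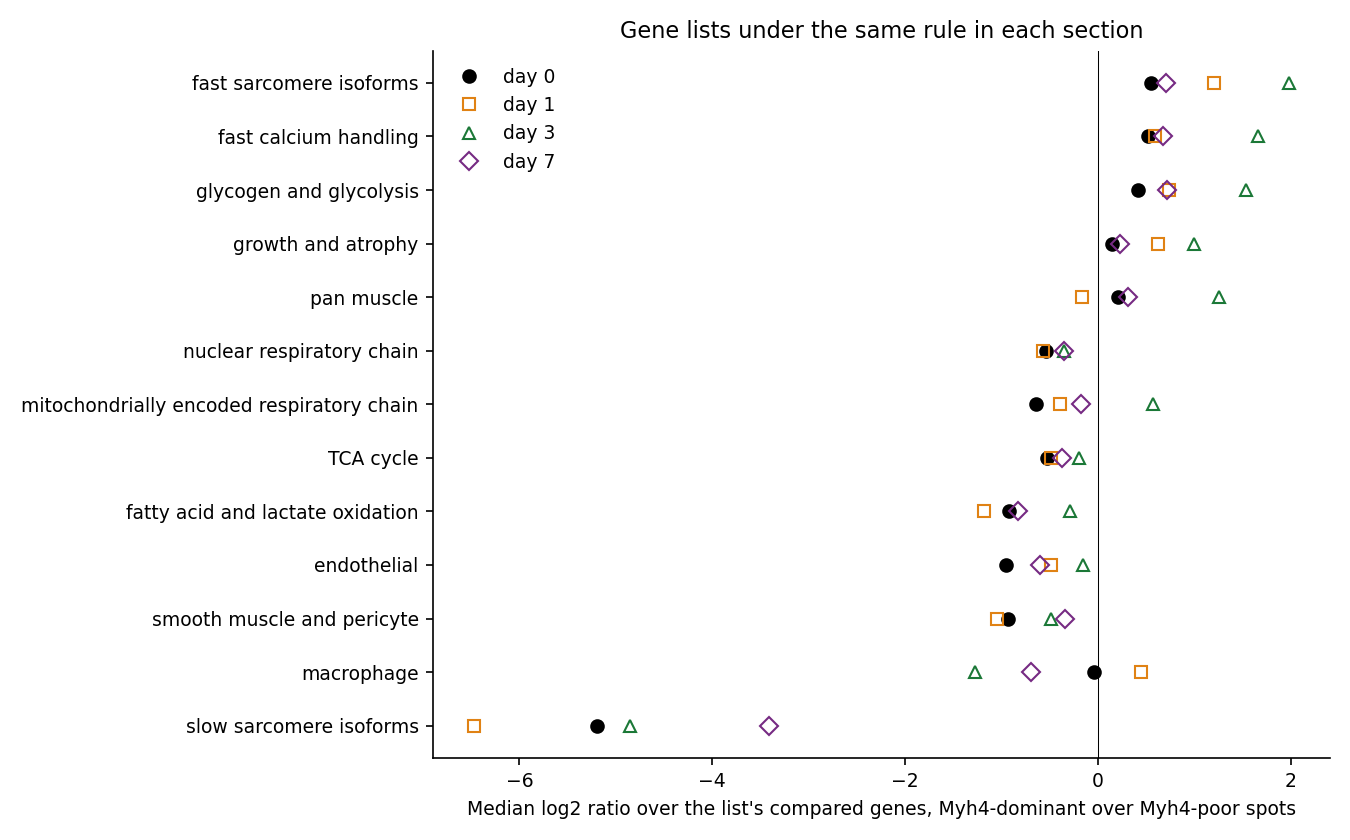
Median log2 ratio of Myh4-dominant over Myh4-poor spots for 13 gene lists (rows), with 1 marker for each section, each split by its own percentiles. The fast sarcomere list lies at 0.55 on day 0 and at 1.98 on day 3 and the slow sarcomere list at -5.19, -6.47, -4.85 and -3.41 on days 0, 1, 3 and 7, while the macrophage list is at -0.04 at day 0 and -1.28 at day 3.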

How the data were processed

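Spatial RNA libraries were prepared by the authors from 1 muscle section per day with Visium slides. As deposited, the files held unnormalized UMI counts of each gene in each spot, made with Space Ranger (1.2.0 per the file headers) against mm10, for 32285 features. Total UMI counts were 43845608 over the 2090 spots kept at day 0. Spots below 2000 UMIs were dropped, and no doublet caller was run, since a spot holds several cells. Of the slide barcodes, 1341 occurred in all 4 sections, pairs of sections sharing 1539 to 2311, as the same barcode set is printed on each array. Spot positions were not used.

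UMIs were summed over the spots of a group and compared as CPM. Ratios carry exact conditional binomial 95% intervals and levels exact Poisson intervals, both for counting error only. Spots of 1 section are not replicates, so no p-value was computed. Genes were compared from 10 CPM over the section, and past the fold means 1.5-fold. Named genes were the 12 largest and 12 smallest ratios among genes with at least 50 CPM, mitochondrial genes and the 4 rule myosins left out, and those of 26 lists (272 genes, all among the features). Of 2 features called Aldoa, 1 was used. The members and lists were chosen with earlier results of these data known. On simulated counts for the day 0 comparison (6793 genes, 200 of them changed) the interval held the true ratio for 96.0% of the changed genes.

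Alternatives were other scalings (edgeR TMM, a total without mitochondrial, haemoglobin and rule myosin genes), thinning to 2000 UMIs, at least 100 rule myosin UMIs, other percentiles, means of spot CPM, spots rich in muscle RNA, all other spots as the comparison, other CPM filters and a 2-fold limit. Requiring 100 rule myosin UMIs at days 1, 3 and 7 was added after seeing the data. So were the split of the genes past the fold into higher and lower shares, and the counts of list genes past the fold under other settings. Promoter windows came from a RefSeq table of GRCm38.p6, the mm10 assembly. Tables were handled in pandas 2.3.3 and NumPy 2.4.6 under Python 3.11.15, intervals were computed in SciPy 1.17.1, TMM factors in edgeR 4.0.16 under R 4.3.3, and figures were drawn in matplotlib 3.10.9.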

Additional observations from a re-analysis of the deposited data

Results flagged for a closer look

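Among the genes of the lists and the 24 named by size, the ratio of Myh4-dominant over Myh4-poor spots was past 1.5-fold one way at day 0 and past it the other way in an injured section for 10, and the remaining genes were not searched. With 1 section a day these differences between days were not tested. The log2 ratio of Actc1 was 1.97 to 2.03 at day 0 and -1.57 at day 3, and that of Mybph 2.20 and -0.78. Tceal7 was at 1.17 at day 0 and -1.29 at day 7. Fbp2 was at 0.68 at day 0 and -0.73 at day 1, and Hk2 at -0.84 and 1.01 in the same sections. Fbxo32, the ubiquitin ligase atrogin, was at -1.54 at day 0, 1.86 at day 1 and 1.43 at day 3. Tcap was at -1.09 at day 0 and 1.29 at day 3. Cldn5, a tight junction gene of endothelium, was at -0.67 at day 0 and 1.02 at day 3. Rgcc was at -0.92 at day 0 and 0.89 at day 1, and mt-Co2 at -0.64 at day 0 and 0.74 at day 3.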

How the results depend on the processing

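No paired analysis was possible because each day had 1 section. The number of genes at least 1.5-fold higher was 186 as reported and 438 with TMM factors, 1028 with spots thinned to 2000 UMIs, 117 with wider groups of 418 spots, 340 with narrower groups of 105 spots, 285 among spots rich in muscle RNA, 9 against all other spots, 70 from 50 CPM, 1062 without the filter and 36 at 2-fold. In the same order without the wider and narrower groups, the number lower was 1018 as reported and 511, 1809, 544, 360, 248, 3593 and 241. The fast sarcomere median of 0.55 was 0.76 with TMM factors, 0.46 with the reduced total, 0.51 thinned, 0.49 for the wider groups, 0.52 for means of spot CPM, 0.30 among spots rich in muscle RNA and 0.26 against all other spots. The slow sarcomere median of -5.19 was -4.47 thinned, -4.67 for the wider groups, -3.35 among spots rich in muscle RNA and -3.26 against all others. The glycolysis median of 0.41 was 0.62 with TMM factors, 0.32 with the reduced total, 0.37 thinned, 0.34 for the wider groups, 0.47 for the narrower groups, 0.18 among spots rich in muscle RNA and 0.16 against all others. The fatty acid and lactate median of -0.92 was -0.71 with TMM factors, -1.08 thinned, -0.44 among spots rich in muscle RNA and -0.39 against all others. These 4 medians kept their sign throughout, and of 273 list medians computed under alternatives 236 did, the others belonging to fibre type regulators, growth and atrophy, slow calcium handling, the 1 compared gene of the other myosins, regenerating muscle, the neuromuscular junction and the markers of non-fibre cells, among which the adipocyte median ran from -1.42 to 1.00 over the settings. The Schwann cell median of -0.28, over 3 genes, was 0.13 thinned and 0.07 for the narrower groups. The cause of these shifts was not tested, apart from the fold and CPM limits, which set how many genes are counted. Thinning kept 113 of the 209 Myh4-dominant spots, and the muscle-rich setting 8 of the 209 Myh4-poor spots. All 264 values of the 24 named genes kept their sign. With at least 100 rule myosin UMIs in the injured sections, chosen after seeing the data, 9, 9 and 10 of the 12 largest and 12, 12 and 12 of the 12 smallest ratios of day 0 were past 1.5-fold the same way at days 1, 3 and 7.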
